A study of Mus musculus with 28 samples.

Results

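Dennd4a and 9 of its relatives form a family of mouse genes that encode DENN domain proteins. The 10 genes, Dennd1a, Dennd1b, Dennd2a, Dennd2c, Dennd3, Dennd4a, Dennd4b, Dennd4c, Dennd5a and Dennd5b, were taken by name from the 45513 genes counted in the study, and all 10 were found. They were chosen to ask whether a higher ribosome footprint level of Dennd4a with mutant TDP-43 was shared by its relatives, so the members were chosen by the Dennd4a footprint counts of MN1 cells with mutant TDP-43 against the other groups, and these are given below as a description with no test. From each of 14 cultures, footprints (stretches of mRNA shielded from RNase by a bound ribosome) and fragmented, poly(A)-selected total mRNA were sequenced as separate libraries, 28 in all. MN1 cells, a clonal line made by fusing mouse spinal motor neurons with mouse neuroblastoma cells, were transiently transfected with GFP, with wild-type human TDP-43 (hTDP-43) or with hTDP-43 carrying the A315T substitution found in amyotrophic lateral sclerosis, in 2 cultures each. The MN1 cells, but not the neurons described next, received 100 µg/mL cycloheximide for 3 minutes before lysis. Primary cortical neurons of C57BL/6J mouse embryos were grown for 14 days, with the antimitotic Ara-C added on day 4. They came from non-transgenic littermates (2 cultures), from Prp-hTARDBP WT mice expressing hTDP-43 (3 cultures) and from Prp-hTARDBP A315T mice expressing the mutant (3 cultures), in which the prion promoter, active in many cell types, drives the transgene. All groups keep their own mouse Tardbp gene.

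Rab GTPases mark the membranes of a cell and direct vesicle traffic between them, and each is switched on when an exchange factor replaces its bound GDP by GTP. DENN domain proteins are one large class of such exchange factors, and each subfamily acts mainly on its own Rab: Dennd1 proteins on Rab35 in endosomal recycling, Dennd2 proteins on Rab9, Dennd3 on Rab12, Dennd4 proteins on Rab10 in the delivery of cargo to the cell surface, and Dennd5 proteins on Rab39. In neurons these Rabs serve the growth of axons and dendrites and the recycling of synaptic and receptor cargo. TDP-43 is an RNA-binding protein with a preference for UG repeats.

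The genes lie on 8 chromosomes of the mouse genome build GRCm38, and all are protein-coding. Dennd4a (ENSMUSG00000053641) spans chr9:64811340-64919667 on the plus strand. Dennd4b is at chr3:90265185-90280669 (plus) and Dennd4c at chr4:86748555-86850603 (plus). Dennd5a is at chr7:109893780-109960470 (minus), Dennd5b at chr6:148988071-149101680 (minus) and Dennd2a at chr6:39462378-39557867 (minus). Reads of Dennd4a were well separable from those of other genes, since none of the 28-base words of its main transcript occurs in another gene. By contrast, 18.5% of such words of Dennd4c also occur in the processed copy Gm18537. For Dennd5b, 15.4% of its counted exon bases are covered by the exons of antisense genes. The counting used no strand, so reads of these overlaps cannot be told apart and the values of Dennd4c and Dennd5b are less certain.

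Footprint counts include UTRs, and the 5′UTR of Dennd4a (463 bases) holds 8 ATG triplets, where the relatives hold 0 to 5. Of 20452 genes, 5.55% have at least 8, and the median gene has 1. The median 5′UTR of these genes is only 164 bases, and those of the relatives are 143 to 423 bases. A longer 5′UTR has room for more such triplets, and the counts were not adjusted for length. The sequences around the annotated start codons are shown to let the subfamilies be compared at the site where footprints of the coding sequence begin, with the start codon in capitals and 12 bases before it:
Dennd4a, chr9:64838822-64838845, plus strand: ctgtgatggaagATGattgaagac
Dennd4c, chr4:86774243-86774266, plus strand: agaacagccatcATGatagaagac
Dennd5a, chr7:109960171-109960194, minus strand: cggcccggagccATGagcggcggc
Dennd5b, chr6:149101298-149101321, minus strand: cagcgcggcgggATGagcggtagc
The letters after the start codon are alike within each pair of paralogues, while those before it differ. The motif TGTGTGTGTGTG, the DNA spelling of a UG repeat, was searched on the transcribed strand. No member held it in the 5′UTR or the 3′UTR of its main transcript, and Dennd3 was the only member that held it in the coding sequence. Among all genes, 0.402% hold it in the 5′UTR, 0.119% in the coding sequence and 5.61% in the 3′UTR. The longest TG run in the Dennd4a transcript is 8 bases. Within whole genes, introns included, 9 of 10 members hold at least 1 such run (Dennd4b holds none), beside 63.3% of 21886 genes. In Dennd5b the longest of these, 49 bases, overlaps an annotated exon of the gene, while the longest run in its main transcript is 8 bases. Dennd4a holds 14 runs, or 12.9 per 100 kb, where the median over all genes is 6.59 per 100 kb. Its longest run, 52 bases in an intron, lies across this window, in which capitals mark an uninterrupted stretch of the repeat:
Dennd4a, chr9:64812061-64812090, plus strand: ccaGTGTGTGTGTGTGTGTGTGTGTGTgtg
Dennd2a holds 14.7 runs per 100 kb and Dennd3 16.8, so a run density above the median is not particular to Dennd4a.

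Libraries held 166064 to 6969578 reads on genes, and footprint libraries were shallower (medians of 740239.5 reads in MN1 cells and 809229.5 in neurons) than total mRNA libraries (1816461 and 3331547.5). In the neuron footprint libraries, 3 counts stand for 1.19 to 18.1 CPM (counts scaled to a common library size), so low members could not be followed there. Neuronal markers set the labelled cell types apart: 6 neuronal genes summed to 4110 to 4610 CPM in neuron total mRNA and to 403 to 502 CPM in MN1 total mRNA. The sum of 4 motor neuron markers was 48.1 to 66.6 CPM in MN1 total mRNA and 3.24 to 9.18 CPM in neuron total mRNA. In MN1 cells Isl1 was at 26.5 to 38.8 CPM, Slc18a3 at 15.3 to 31.9 CPM, Mnx1 at 0.603 to 1.37 CPM and Chat at 0 to 2.54 CPM. Chat did not set the cell types apart, with 0 to 2.24 CPM in neurons. Neuron total mRNA also held 4 astrocyte markers at 39.4 to 98.5 CPM in sum and 4 oligodendrocyte lineage markers at 31.1 to 47.1 CPM in sum. In it, 3 microglial markers summed to at most 3.09 CPM. Reads on mouse Tardbp, to which human transgene reads can also align, were 224 to 246 CPM in MN1 total mRNA with GFP, 347 to 416 CPM with hTDP-43 and 381 to 425 CPM with A315T. In neuron total mRNA they were 65.4 to 112 CPM in non-transgenic cultures and 58.3 to 88 CPM (hTDP-43) and 65.5 to 82.2 CPM (A315T) in the transgenic groups, which overlapped. In neuron footprints they were 101 to 105 CPM in non-transgenic cultures, above the 66.7 to 84.5 CPM with hTDP-43 and the 79.1 to 98.4 CPM with A315T. Lars2 took 18.8% of the reads of 1 neuron total mRNA library (non-transgenic replicate 3) and 14.1% of another (hTDP-43 replicate 3), and the member values of comparisons that hold these libraries are given with them, and beside that without them (an alternative chosen after seeing the data). The labels give the MN1 replicates different days but do not describe their transfections, and p-values measure the spread between these samples.

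Dennd4a was the member whose MN1 footprints stood apart with A315T. Its footprint level was 428 CPM and 334 CPM in the A315T cultures, 146 CPM and 73.9 CPM with GFP, and 133 CPM and 76.7 CPM with hTDP-43 (replicates 1 and 2, from 507, 190, 146, 70, 95 and 29 counts). Both A315T libraries were above all 4 others, and the other groups overlapped. The log2 fold change was 1.79 ± 0.27 (SE) against GFP, or 3.45-fold, and 1.74 ± 0.24 against hTDP-43, or 3.34-fold. Both contrasts share the A315T libraries and are not independent of each other. Within replicate 1 the A315T level was 2.94 times that with GFP and within replicate 2 it was 4.52 times. These values chose the family and have no test. For reference, 0.0115% of 8659 genes passed an adjusted p of 0.05 against GFP and 0% of 7653 against hTDP-43 with edgeR, and no member was among them, while DESeq2 called Dennd4a in both. With the replicate number as a block, 0.624% and 0.706% of genes passed and Dennd4a was the 1 member among them in each. Nothing is read from that, since this contrast picked the gene.

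**Figure D1:**
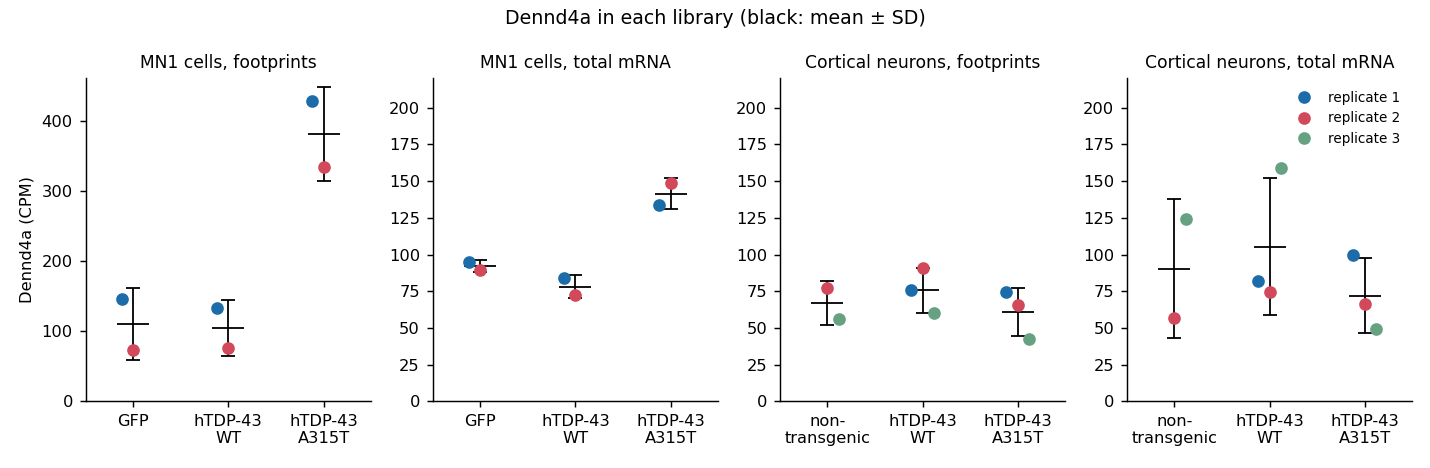
Dennd4a level in CPM (y axis) in every library, with MN1 cells and cortical neurons, footprints and total mRNA in separate panels whose axes start at 0. Points are libraries coloured by replicate number, and the black lines are group means ± SD. The A315T footprint libraries of MN1 cells lie at 428 and 334 CPM, above the 73.9 to 146 CPM of the other MN1 footprint libraries, while the neuron groups overlap.

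Total mRNA of Dennd4a was also higher in the A315T cultures of MN1 cells, by less than the footprints. It was 134 CPM and 149 CPM with A315T, 95.2 CPM and 89.3 CPM with GFP, and 83.8 CPM and 72.7 CPM with hTDP-43. The groups did not overlap. The log2 fold change was 0.55 ± 0.15 (SE) against GFP (1.47-fold) and 0.75 ± 0.16 against hTDP-43 (1.69-fold). The footprint difference beyond that of total mRNA was 1.22 ± 0.33 on the log2 scale against GFP (2.33-fold) and 0.96 ± 0.30 against hTDP-43 (1.95-fold). In these 2 tests of footprints relative to total mRNA 0% of 10081 and 0% of 10029 genes passed, and 0.0198% with the culture as a block against GFP. That blocked test called 2 genes, 1 of them Dennd4a, again a description only. Total mRNA and footprints of Dennd4a differed little between hTDP-43 and GFP, with log2 fold changes of -0.21 and 0.06.

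None of the 7 relatives tested in MN1 footprints had a difference near that of Dennd4a. Their log2 fold changes against GFP ranged from -0.32 (Dennd1b) to 0.20 (Dennd5b), with a median of 0.10, and those against hTDP-43 from -0.22 (Dennd3) to 0.54 (Dennd1a), with a median of 0.15. The median over all genes tested was 0.00 in both. In the same order as above, Dennd4c, the Rab10 exchange factor closest to Dennd4a, had 44.7 CPM and 22.8 CPM with A315T, 31.9 CPM and 33.8 CPM with GFP, and 25.1 CPM and 34.4 CPM with hTDP-43. The A315T libraries of Dennd4c enclosed the GFP libraries, and its difference from GFP was 0.12 ± 0.32 (95% interval -0.57 to 0.82).

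Dennd5a, a Rab39 exchange factor whose loss in people causes a severe epilepsy of infancy, had 55.7 CPM and 66.8 CPM with A315T, 61.9 CPM and 44.3 CPM with GFP, and 67.0 CPM and 55.5 CPM with hTDP-43. Its groups overlapped, and the difference from GFP was 0.17 ± 0.25. Dennd2a, which acts on Rab9 in the return of receptors from endosomes to the Golgi, had 50.6 CPM and 43.9 CPM with A315T against 48.9 CPM and 52.8 CPM with GFP, a difference of -0.10 ± 0.23. Dennd1a, the clathrin-associated Rab35 exchange factor, had 27.8 CPM and 33.4 CPM with A315T, 31.9 CPM and 23.2 CPM with GFP and 16.8 CPM and 23.8 CPM with hTDP-43. Both A315T libraries of Dennd1a were above both hTDP-43 libraries, but the interval of that difference was -0.36 to 1.44. At this depth, differences of the relatives within their intervals could not be told from no difference.

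The counts do not allow a statement on Dennd4b footprints in MN1 cells, although Dennd4b is a close paralogue of Dennd4a. Its 6 MN1 footprint libraries held 1 to 7 counts (2.64 to 6.98 CPM) and it did not reach the count minimum. Dennd2c held 0 to 3 counts in MN1 footprints and 0 to 13 in any library, and was tested in no comparison.

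**Figure D2:**
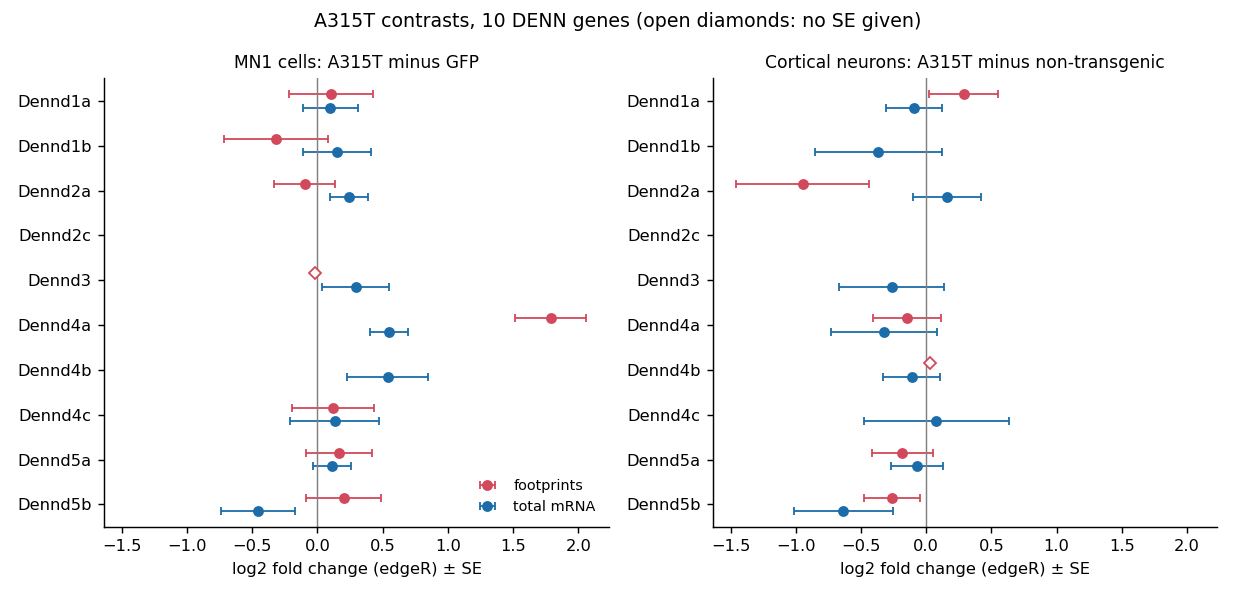
Log2 fold change ± SE (x axis) of each member with A315T against GFP in MN1 cells (left) and against non-transgenic littermates in cortical neurons (right), for footprints and total mRNA. Members too low to test have no point, open diamonds have no SE, and in MN1 footprints Dennd4a lies at 1.79 while the relatives lie between -0.32 and 0.20.

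In total mRNA of MN1 cells, 9 members could be tested and none passed edgeR's test at an adjusted p of 0.05 in any of the 3 genotype contrasts, where 0.00965% of 10361 genes passed for A315T against GFP, 0% of 10080 for A315T against hTDP-43 and 0.01% of 9954 for hTDP-43 against GFP. DESeq2 called no member either. At an unadjusted p below 0.05, 1 of 8 relatives passed, Dennd4b for A315T against hTDP-43, beside 3.52% of all genes in that contrast. Dennd4b, which like Dennd4a acts on Rab10, had 15.1 CPM and 21 CPM with A315T, 10.9 CPM and 12.3 CPM with GFP, and 7.53 CPM and 11.5 CPM with hTDP-43, from 16 to 50 counts. Both A315T libraries were the highest. The log2 difference was 0.54 ± 0.31 against GFP and 0.83 ± 0.36 against hTDP-43 (adjusted p = 1 in edgeR's quasi-likelihood test). With the replicate number as a block, 2.73% and 0.754% of genes passed for A315T against GFP and against hTDP-43, and of the 9 members only Dennd4a was among them. The paper kept genes altered in footprints but not in total mRNA, so the values of Dennd4a here, called or not, are no test.

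The A315T libraries did not overlap the GFP libraries in total mRNA for 4 of 9 members (Dennd2a, Dennd3, Dennd4a and Dennd4b, all higher), and did not overlap the hTDP-43 libraries for 5 of 9 (Dennd1a, Dennd2a, Dennd4a, Dennd4b and Dennd5a, all higher). Among all genes, 37.2% and 35.5% did not overlap in these contrasts, in either direction, so the members' shares are near the background. Dennd2a had 113 CPM and 99.9 CPM with A315T, 83.1 CPM and 88.5 CPM with GFP and 89.9 CPM and 90.2 CPM with hTDP-43, a difference from GFP of 0.24 ± 0.15. Dennd5b went the other way, with 29.0 CPM and 21.9 CPM with A315T, 41.6 CPM and 26.5 CPM with GFP and 39.5 CPM and 24.8 CPM with hTDP-43, a difference of -0.45 ± 0.28 from GFP. Its libraries overlapped between the groups.

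Wild-type hTDP-43 against GFP called no member in MN1 footprints (0% of 8334 genes passed), and DESeq2 called none. No member passed an unadjusted p of 0.05 there, beside 1.38% of all genes. The relatives' log2 fold changes ran from -0.71 to 0.30 in footprints and from -0.29 to 0.51 in total mRNA. The lowest footprint value belonged to Dennd1b, whose hTDP-43 libraries held 12 counts and 1 count.

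In cortical neurons the A315T transgene came with no such difference of Dennd4a. Footprints of Dennd4a were 74.7, 65.6 and 42.7 CPM in A315T neurons (replicates 1 to 3), 75.6, 91.2 and 60 CPM in hTDP-43 neurons, and 77.3 and 56.1 CPM in non-transgenic neurons (replicates 2 and 3). All 3 groups overlapped. The log2 difference of A315T was -0.15 ± 0.26 from non-transgenic neurons (95% interval -0.73 to 0.43) and -0.29 ± 0.25 from hTDP-43 neurons (-0.83 to 0.24), both with an adjusted p of 1 in edgeR's test. The interaction of cell type and A315T itself was not tested. The neurons carry a stably expressed transgene and the MN1 cells a transient one, so the cell type and the way of expression cannot be told apart.

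Total mRNA of Dennd4a in neurons varied more between libraries than between genotypes. It was 99.8, 66.2 and 49.6 CPM with A315T, 82.3, 74.5 and 159 CPM with hTDP-43, and 56.9 and 124 CPM in non-transgenic neurons. The highest value of each of the latter groups came from its library rich in Lars2. The difference of A315T from non-transgenic neurons was -0.32 ± 0.41 (interval -1.27 to 0.62), and leaving out single libraries moved it between -0.75 and 0.35. Against hTDP-43 it was -0.49 ± 0.33, and footprints relative to total mRNA differed by 0.18 ± 0.55 and 0.17 ± 0.45. Without the Lars2-rich libraries the total mRNA differences were 0.35 ± 0.34 and -0.13 ± 0.27, and those of footprints relative to total mRNA -0.47 ± 0.47 and -0.16 ± 0.38, so 3 of these 4 values changed sign and none passed (adjusted p = 1 in edgeR's test).

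With edgeR no member passed in any neuron genotype contrast, and neither did any other gene. In footprints, 0% of 9510 genes passed for A315T against non-transgenic, 0% of 8367 for A315T against hTDP-43 and 0% of 8117 for hTDP-43 against non-transgenic. In total mRNA these were 0% of 11927, 0% of 11201 and 0% of 11828, and for footprints relative to total mRNA 0% of 11831 (A315T against non-transgenic) and 0% of 10967 (against hTDP-43). DESeq2 called no member in any of them. At an unadjusted p below 0.05 in edgeR, 0 members passed in the 6 contrasts of 1 library type, beside 0.372% to 5.16% of all genes. Dennd2a passed in 1 of the relative contrasts, A315T against hTDP-43, beside 1.19% of all genes. Of 10 members, 6 reached the count minimum in footprints of A315T against non-transgenic neurons (Dennd1a, Dennd2a, Dennd4a, Dennd4b, Dennd5a and Dennd5b).

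Dennd2a footprints were 11, 6.56 and 3.21 CPM in A315T neurons, 16.9, 5.36 and 13.3 CPM in hTDP-43 neurons and 15.5 and 15 CPM in non-transgenic neurons. Every A315T library was below both non-transgenic libraries, but 5 of these 8 libraries held 8 counts or fewer. The log2 difference was -0.95 ± 0.51 from non-transgenic neurons, and relative to total mRNA it was -1.12 ± 0.55 from non-transgenic and -1.19 ± 0.49 from hTDP-43 neurons (adjusted p = 1). Single libraries moved these values: without A315T replicate 1 they were -1.77, -1.92 and -2.06, without A315T replicate 3 those from non-transgenic neurons were -0.62 and -0.77, and without hTDP-43 replicate 1 the last was -0.65. With the replicate block the first was -1.70. Without the Lars2-rich libraries the relative values were -0.86 ± 0.53 and -1.13 ± 0.50. Dennd5b, the relative with the highest neuron footprints in CPM, had 87.8, 85.2 and 58.8 CPM with A315T and 89.7 and 97.2 CPM in non-transgenic neurons, a difference of -0.26 ± 0.22. Dennd2a and Dennd5b were the 2 of 6 members whose A315T and non-transgenic footprints did not overlap, both lower with A315T, beside 18.8% of all genes. In total mRNA this held for 1 of 9 members, Dennd4b at 55.6, 54.8 and 59.0 CPM against 62.5 and 59.2 CPM, beside 9.57% of all genes. Against the 1 non-transgenic library that is not rich in Lars2 it held for 3 of 9 members, beside 45.7% of all genes. Total mRNA of Dennd5b was 68.9, 54.3 and 46.4 CPM in A315T neurons and 52.6 and 124 CPM in non-transgenic neurons, the last from the Lars2-rich library. Its difference was -0.64 ± 0.38 with that library and 0.11 ± 0.28 without it. The other relatives ran from -0.37 to 0.16 in that contrast of total mRNA with all libraries and from -0.15 to 0.79 (Dennd4c) without the library, which leaves 1 non-transgenic library, assumed to vary like the A315T group. No member passed without the Lars2-rich libraries in any of the 3 contrasts of neuron total mRNA, beside 0.00814% of genes for A315T against non-transgenic, 0% against hTDP-43 and 0.00829% for hTDP-43 against non-transgenic, nor for footprints relative to total mRNA.

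The remaining neuron footprint differences of A315T from non-transgenic neurons were 0.29 ± 0.26 (Dennd1a), 0.03 (Dennd4b) and -0.18 ± 0.23 (Dennd5a).

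The members differed widely in level, and the order differed between the cell types. Levels between genes are given as RPKM, the CPM value per kilobase of counted exon, as means ± SD over the 6 MN1 or 8 neuron libraries. In MN1 total mRNA the order was Dennd5a at 23.7 ± 2.57, Dennd2a at 17.3 ± 1.96, Dennd4a at 12.0 ± 3.52, Dennd1a at 5.47 ± 0.77, Dennd3 at 4.28 ± 0.70, Dennd5b at 2.88 ± 0.76, Dennd4c at 2.38 ± 0.84, Dennd4b at 2.17 ± 0.76, Dennd1b at 1.33 ± 0.37 and Dennd2c at 0.25 ± 0.08. The ranges of neighbours in that order overlapped except between Dennd4a and Dennd1a and between Dennd1b and Dennd2c. In neuron total mRNA Dennd5a was again first at 23.6 ± 2.62, followed by Dennd1a at 13.2 ± 1.56, Dennd4a at 10.3 ± 4.29, Dennd4b at 9.65 ± 0.79, Dennd5b at 6.32 ± 2.41, Dennd2a at 4.96 ± 0.81, Dennd3 at 1.28 ± 0.40, Dennd4c at 1.05 ± 0.35, Dennd1b at 0.53 ± 0.20 and Dennd2c at 0.10 ± 0.11. Here the ranges of neighbours were separate between Dennd5a and Dennd1a, between Dennd2a and Dennd3, and between Dennd1b and Dennd2c. Over the 6 neuron libraries that are not rich in Lars2, Dennd4a was at 8.28 ± 2.10, below Dennd4b at 9.62 ± 0.93, Dennd5b was at 5.33 ± 1.06, and the order was otherwise the same. RPKM divides by the whole exon length, of which the coding part ranges from 12.3% in Dennd1b to 75.2% in Dennd4b, so footprint RPKM is lowered for genes with long UTRs.

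In footprints Dennd4a was first in MN1 cells at 22.9 ± 17.0 RPKM, a mean that includes the A315T cultures (range 8.55 to 49.5). Dennd2a came next at 8.61 ± 0.90, then Dennd5a at 6.75 ± 0.99 and Dennd1a at 4.56 ± 1.08. In neurons Dennd1a (9.01 ± 1.83), Dennd5b (8.06 ± 1.81), Dennd4a (7.85 ± 1.74) and Dennd5a (7.18 ± 1.13) had overlapping footprint ranges. They were followed by Dennd4b at 4.38 ± 0.68 and Dennd2a at 2.00 ± 0.95, and the other 4 members were below 1 RPKM on average.

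**Figure D3:**
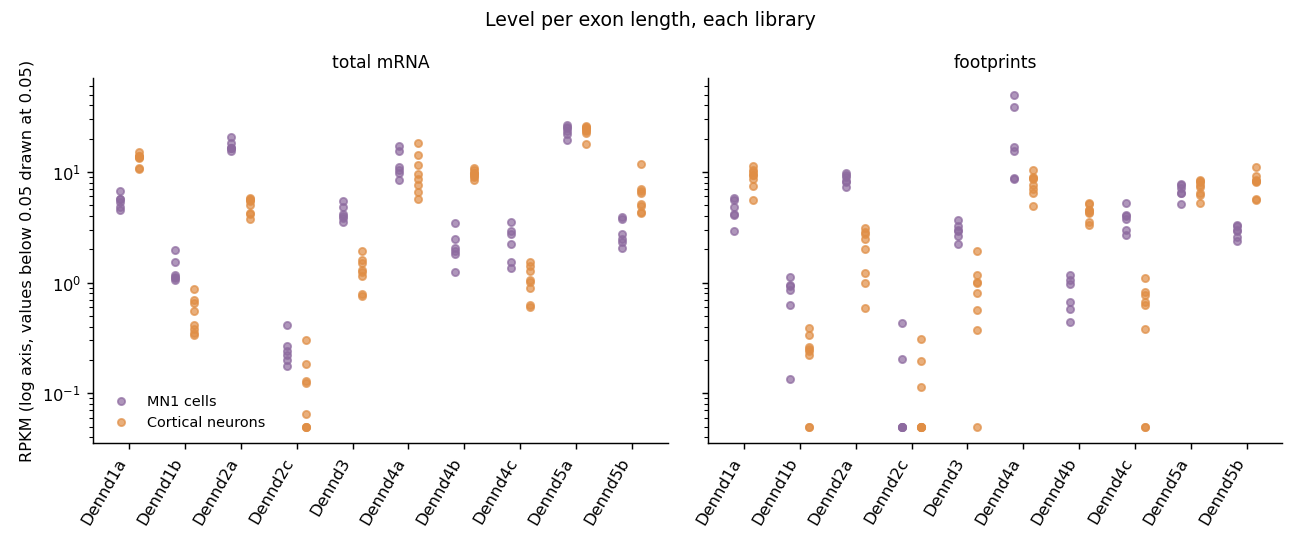
Level of each member in RPKM (y axis, log scale, with values below 0.05 drawn at 0.05) in single libraries of MN1 cells and cortical neurons, with total mRNA and footprints in separate panels. Dennd5a has the highest mean in total mRNA of both cell types, and the A315T footprint libraries of Dennd4a, up to 49.5 RPKM, are the highest points of MN1 footprints.

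Cell type separated most members. Neurons against MN1 cells was not the contrast that chose the family, although for Dennd4a it holds the A315T libraries. In footprints 7 of 8 relatives passed, 3 higher and 4 lower in neurons, and in total mRNA 7 of 8 relatives passed, 3 higher and 4 lower. These counts are near the background, since 82.6% of 10698 genes passed in footprints and 81% of 12801 in total mRNA. Without the Lars2-rich libraries the same 7 relatives passed in total mRNA, beside 81.5% of genes. Dennd4a also passed in that fit, which is no test, since the gene was picked on MN1 libraries that the fit holds. Libraries of the cell types did not overlap for 5 of 9 members in footprints, beside 60.1% of all genes, and for 6 of 9 in total mRNA, beside 62.8% (6 of 9 and 69.1% without the Lars2-rich libraries). In bulk cultures, fewer cells that express a gene and less RNA per cell cannot be told apart. Astrocyte markers were at 0 to 2.19 CPM in sum in MN1 total mRNA against 39.4 to 98.5 CPM in neurons, and 2 proliferation markers were at 159 to 331 CPM against 1.27 to 6.72 CPM. Their part in these results was not tested.

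Dennd4b, Dennd5b and Dennd1a were higher in neurons. Dennd4b had 50.5 to 65.8 CPM in neuron total mRNA (median 9.72 RPKM) against 7.53 to 21 CPM in MN1 cells, with no overlap. Its log2 difference was 2.21 ± 0.15 in total mRNA (4.64-fold, adjusted p = 3.93e-09 in edgeR's test) and 2.36 ± 0.26 in footprints (5.13-fold, adjusted p = 3.01e-08). Dennd5b was higher by 1.17 ± 0.22 in total mRNA (adjusted p = 0.000215) and was 2.82-fold higher in footprints (95% interval of the log2 difference 1.16 to 1.83, adjusted p = 1.66e-08). Dennd1a was higher by 1.29 ± 0.12 in total mRNA (adjusted p = 9.73e-08) and 1.04 ± 0.18 in footprints (adjusted p = 1.88e-05).

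Dennd2a, Dennd3, Dennd1b and Dennd4c were lower in neurons. Dennd2a ran from 20.2 to 31.4 CPM in neuron total mRNA and from 83.1 to 113 CPM in MN1 cells, a difference of -1.78 ± 0.12 (3.43-fold lower, adjusted p = 3.02e-09), and its footprint difference was -1.91 ± 0.21 (adjusted p = 2.25e-08). Dennd3, the Rab12 exchange factor, differed by -1.63 ± 0.20 in total mRNA (adjusted p = 1.99e-06) and -1.80 ± 0.36 in footprints (adjusted p = 8.3e-05). Dennd1b differed by -1.31 ± 0.24 (adjusted p = 0.000173) and -1.64 ± 0.36 (adjusted p = 0.000283), and Dennd4c by -1.17 ± 0.29 (adjusted p = 0.00205) and -2.42 ± 0.29 (adjusted p = 8.97e-08). Dennd5a did not pass in either, with differences of 0.01 in total mRNA and 0.14 ± 0.14 in footprints (interval -0.16 to 0.44).

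Without the Lars2-rich libraries the total mRNA differences were 2.30 (Dennd4b), 0.98 (Dennd5b), 1.35 (Dennd1a), -1.61 (Dennd2a), -1.61 (Dennd3), -1.48 (Dennd1b), -1.30 (Dennd4c) and 0.15 (Dennd5a). Each of the first 7 passed as before, with adjusted p from 2.19e-09 to 0.00128, and Dennd5a did not (adjusted p = 0.17).

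Paralogues of the same subfamily took different sides: Dennd4b was higher in neurons and Dennd4c lower, and Dennd1a was higher and Dennd1b lower, in both library types. With the control groups alone (GFP and non-transgenic), 7 members passed in footprints and 4 in total mRNA (Dennd1a, Dennd2a, Dennd4b and Dennd5b). Over all genes, 7211 of 10177 passed in footprints and 6471 of 12105 in total mRNA in these fits. Dennd4c then differed by -1.07 in total mRNA (adjusted p = 0.173) and Dennd1b by -0.78 (adjusted p = 0.244), so the total mRNA side of these 2 genes rests on the larger set of cultures.

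Dennd4a itself was at -1.27 ± 0.17 on the log2 scale in neuron footprints against MN1 footprints over all groups. This value holds the A315T cultures that chose the family, so it has no test. With the control groups alone the difference was -0.59 ± 0.28. In total mRNA it was -0.22 ± 0.22, 0.06 ± 0.42 with the control groups alone, and -0.47 ± 0.16 without the 2 libraries rich in Lars2. These total mRNA values are also given with no test, since the gene was picked on MN1 footprints and total mRNA.

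**Figure D4:**
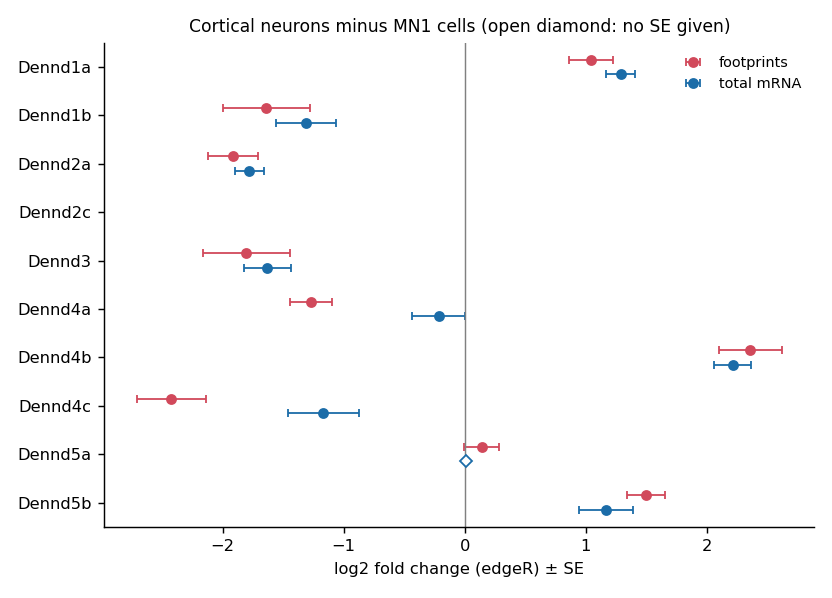
Log2 difference of cortical neurons from MN1 cells ± SE (x axis) for each member, in footprints and total mRNA. Dennd4b lies at 2.36 and 2.21, Dennd4c at -2.42 and -1.17, and Dennd5a near 0 in both.

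Footprints relative to total mRNA of the same cultures differed between members. This value is the log2 difference of footprint and total mRNA levels against the average gene, in which the library types also differ by poly(A) selection and by the share of UTR in the counted exons. Dennd5a was lowest in both cell types, at -1.73 ± 0.12 in MN1 cells (adjusted p = 5.33e-08 in edgeR's test) and -1.60 ± 0.12 in neurons (adjusted p = 2.34e-08). Its footprints were 44.3 to 67.0 CPM in MN1 cells and 45.9 to 73.4 CPM in neurons, against 170 to 229 CPM and 155 to 227 CPM in total mRNA, with no overlap. Of its counted exon bases 44.5% are coding. Dennd2a was at -0.92 ± 0.10 (adjusted p = 4.5e-06) and -1.08 ± 0.21 (adjusted p = 0.000367), and Dennd4b at -1.18 ± 0.30 (adjusted p = 0.00399) and -1.01 ± 0.13 (adjusted p = 6.83e-06). With 75.2% of its exon bases coding, Dennd4b has the largest coding share of the members.

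In MN1 cells 6 of 8 relatives passed this test, 5 with lower and 1 with higher footprints, beside 57.4% of 10212 genes. The higher relative was Dennd4c at 0.75 ± 0.26 (adjusted p = 0.0213), and Dennd4a, given with no test, was at 0.80. Without the A315T groups, 2 members passed, Dennd2a and Dennd5a, beside 4415 of 9887 genes. Dennd4a was then at 0.43 ± 0.21 and Dennd4c at 0.71 (adjusted p = 0.102). In neurons 5 of 9 passed, all lower, beside 54% of 11654 genes. Dennd5b was on the other side at 0.43 ± 0.19 (adjusted p = 0.0614). It passed with the culture as a block (0.47 ± 0.16, adjusted p = 0.0231), where 57.5% of genes passed, and without the Lars2-rich libraries (0.62 ± 0.16, adjusted p = 0.00253). Dennd4a in neurons was at -0.26 ± 0.22 (adjusted p = 0.34), and at 0.01 without the Lars2-rich libraries. Without them 6 of 9 members passed, beside 53.8% of genes, and the 5 lower members ran from -1.72 (Dennd5a) to -0.52 (Dennd1a).

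**Figure D5:**
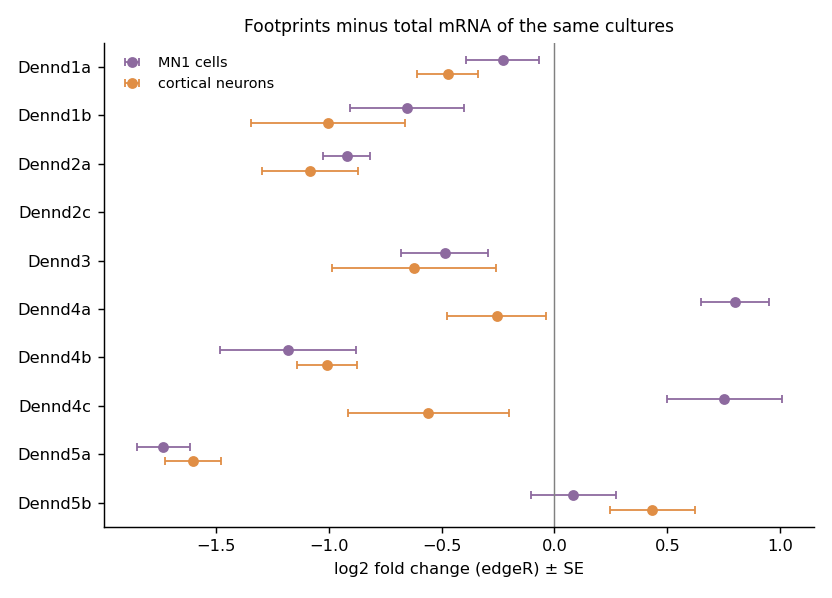
Log2 footprint level relative to total mRNA ± SE (x axis) for each member, in MN1 cells and cortical neurons. Dennd5a lies lowest in both at -1.73 and -1.60, and Dennd4a and Dennd4c lie above 0 in MN1 cells and below 0 in neurons.

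The difference of this measure between the cell types passed for 0 of 8 relatives, beside 8.07% of 12358 genes with all libraries and 7.15% without the Lars2-rich ones. With all libraries, 1 of the 8 relatives had an unadjusted p below 0.05, beside 23.3% of all genes. That relative, Dennd4c, was at -1.17 ± 0.46 (adjusted p = 0.116), lower in neurons, and at -0.98 ± 0.46 without the Lars2-rich libraries (adjusted p = 0.217). DESeq2 called no relative, and with the culture as a block, where 10.7% of genes passed, none passed either. Dennd4a was at -0.94 ± 0.31, at -0.65 ± 0.26 without the Lars2-rich libraries and at -0.83 ± 0.39 without the A315T groups. These are descriptions with no test, since the MN1 footprint libraries chose the gene. The median of all genes was 0.20 on this scale with TMM scaling and -0.02 with size factors of the RLE kind, and the share of passing genes that were higher in neurons went from 73.6% to 31.0%, so the members' values are read against that shift. MN1 cells received cycloheximide before lysis and neurons did not, and the drug and the cell type cannot be told apart.

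No other gene of the pathway passed in a genotype contrast, where at most 0.0115% of all genes passed, and between the cell types their shares are set below beside those of all genes. Among 17 other DENN genes, 13 were tested in MN1 footprints for A315T against GFP (median -0.06, from -0.89 to 0.96). Of 17 Rab substrates 11 were tested (median -0.07), of 11 GTPase-activating proteins and effectors of Rab10 and Rab35 9 (median 0.03), and of 19 Rab exchange factors without a DENN domain 15 (median -0.07). The highest log2 fold change in these lists was 0.96. Dennd4a was chosen for its value in this contrast, so nothing is read from the lists lying below it. In neuron footprints for A315T against non-transgenic the medians of the lists were 0.07, -0.04, 0.00 and 0.04.

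Between the cell types, 11 of 14 other DENN genes passed in footprints, 7 higher and 4 lower in neurons, beside 82.6% of all genes. Madd, which acts on the synaptic vesicle Rab3 proteins, was higher by 1.89 ± 0.13 (adjusted p = 1.01e-11), and Dennd6b by 2.45 ± 0.30 (adjusted p = 1.4e-07). The Rab substrates had 10 of 14 higher and 3 lower, beside the same 82.6%. Rab3a, the main Rab of synaptic vesicles, was higher by 5.07 ± 0.15 (adjusted p = 1.84e-17) and Rab14 by 1.51 ± 0.12 (adjusted p = 9.73e-11). In total mRNA, where 81% of all genes passed, 11 of 17 substrates were higher and 5 lower, among them Rab27a, a Rab of secretory granules, at -3.92 ± 0.29 (adjusted p = 9.28e-09). Of the Rab10 and Rab35 regulators and effectors, 4 of 10 were higher and 3 lower in footprints, again beside 82.6% of all genes. They included Ocrl, an inositol phosphatase recruited by Rab35, at 2.34 ± 0.22 (adjusted p = 2.69e-09) and Tbc1d4, a GTPase-activating protein for Rab10, at -2.06 ± 0.28 (adjusted p = 7.62e-07). Exchange factors without a DENN domain had 8 of 15 higher and 4 lower in footprints, where 82.6% of all genes passed, among them Ccz1, a subunit of the Rab7 exchange factor, at -1.25 ± 0.15 (adjusted p = 1.02e-07).

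For footprints relative to total mRNA in MN1 cells, 9 of 14 other DENN genes were lower and 2 higher, beside 57.4% of all genes in either direction, with Sbf1, a catalytically inactive myotubularin with a DENN domain, at -1.29 ± 0.11 (adjusted p = 3.1e-07) and Smcr8, the partner of C9orf72 in autophagy, at -1.04 ± 0.11 (adjusted p = 3.52e-06). Of the exchange factors without a DENN domain, 9 of 15 were lower and none was higher, beside the same 57.4%. In neurons 3 of 15 other DENN genes were lower and 1 higher, beside 54% of all genes, and Sbf1 was at -0.97 ± 0.12 (adjusted p = 2.29e-06). Rab35, the substrate of the Dennd1 proteins, was lower in both, at -0.88 ± 0.13 in MN1 cells (adjusted p = 6.16e-05) and -0.48 ± 0.14 in neurons (adjusted p = 0.00613).

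Over the 12 MN1 libraries, with footprints and total mRNA centred separately, the genes whose log2 CPM pattern was most like that of Dennd4a among 5623 genes with at least 10 counts in every library were Pth1r (Pearson r = 0.98), Cyfip1 (0.90), Gbf1 (0.89), Jade2 (0.87) and Mcm7 (0.87). Of the members that reached this minimum, Dennd5a had r = 0.34, Dennd2a 0.13, Dennd4c 0.04 and Dennd5b -0.01. The libraries share dates and groups, so these are descriptions.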

How the data were processed

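The data are 28 libraries, of footprints and of total mRNA from 14 cultures. The authors clipped reads with cutadapt 1.8.1, removed non-coding RNA with Bowtie2, aligned to GRCm38 with TopHat2 and counted reads on exons with featureCounts 1.4.4 (no strand option). The deposited values are these raw counts per gene. Cell type, group, library type and replicate came from the labels. The 10 members and all gene lists were chosen with earlier results of these data known. All members were described in every comparison. Up to 5 genes of each other list past the threshold could be named, by smallest p. The 5 genes most like Dennd4a were named by Pearson r.

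Pairs of groups were fitted with edgeR 4.0.16 in R 4.3.3 on their libraries only (quasi-likelihood test, minimum count 10, minimum total count 15, TMM scaling, Benjamini-Hochberg adjustment over all genes, threshold 0.05). Cell types, and footprints relative to total mRNA, were fitted with a mean per group and library type. An SE is the absolute log2 fold change over the square root of F. It is not given at p above 0.9 or where edgeR bounded p by a Poisson test. CPM and RPKM are on the TMM scale over the 14 libraries of a library type. DESeq2 1.42.0, RLE scaling, no filter, a joint fit, a block and leave-one-out fits were alternatives. Within a cell type the labels date same-numbered libraries alike (1 library differs in its year), so the number was taken to pair them. Deviations from group means correlated at 0.34 (MN1 footprints), 0.44 (MN1 total mRNA), 0.12 (neuron footprints) and 0.17 (neuron total mRNA) on average. On simulated counts, 96.4% of 4-fold changed genes were recovered for MN1 total mRNA of A315T against hTDP-43 (10080 genes). For neuron footprints of A315T against non-transgenic it was 97.9% (9510 genes). The simulated counts had the same dispersion for every gene and no effect shared by a replicate, unlike the data, so recovery in the data can be lower. The members tested in these contrasts differed by less than 4-fold, and recovery of changes below 4-fold was not tested. Symbols, transcripts and sequence came from GENCODE M21 on GRCm38.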

Additional observations from a re-analysis of the deposited data

Results flagged for a closer look

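For Dennd5b footprints, every A315T library was above its control libraries in MN1 cells (log2 fold change 0.20) and below them in neurons (-0.26), and the difference between the cell types was not tested. In neuron footprints 18.8% of all genes did not overlap in that contrast, and the share in MN1 footprints was not counted. For Dennd4b total mRNA, every A315T library was above its controls in MN1 cells (0.54) and below them in neurons (-0.11), and again the difference was not tested. In neurons the nearest libraries were at 59.0 CPM with A315T and 59.2 CPM in the Lars2-rich non-transgenic library. Among all genes, 37.2% did not overlap in that MN1 contrast and 9.57% in that neuron contrast. None of the 4 log2 fold changes passed edgeR's test.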

How the results depend on the processing

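No member changed the sign of a called value under any alternative. Calls of Dennd4a in the MN1 genotype contrasts below are no test, since the gene was picked on MN1 footprints and total mRNA. In MN1 footprints the number of members called for A315T went from 0 to 1 (Dennd4a) against GFP and against hTDP-43 with DESeq2, with no filter on low counts, with the replicate block, and in every fit that left out 1 library (1 to 1). In MN1 total mRNA it went from 0 to 1 with the replicate block in both A315T contrasts, and against hTDP-43 also with no filter and in some leave-one-out fits (0 to 1). For footprints relative to total mRNA against GFP it was 1 with no filter and with the block. In neuron total mRNA it was 0 to 1 when single libraries were left out, with 1573 genes called without non-transgenic replicate 2. Between the cell types, members called in total mRNA fell from 7 to 4 with control groups only, where genes called went from 10369 of 12801 to 6471 of 12105. In MN1 footprints against total mRNA 7 members, among them Dennd4a with no test, became 2 without the A315T groups (an alternative chosen after seeing the data). Genes called went from 5857 of 10212 to 4415 of 9887. In both cell types the number of members called for footprints against total mRNA also changed with single libraries left out. The comparison of that measure between the cell types gave 1 member (Dennd4a, whose MN1 footprints chose the family, so that these calls are no test) with DESeq2, with RLE scaling, with no filter and with the block, and 0 to 1 with single libraries left out. The cause was not tested. Besides these calls and that of Dennd5b in neurons (footprints relative to total mRNA), the block changed no member's call. Over single members, 1817 values under alternatives kept their direction and side of the threshold or moved by less than their SE, 31 passed where the reported value did not, 27 no longer passed, and 115 that passed in neither moved by more. Genes called over the whole table also moved: 1 to 54 (block) and 45 (no filter) in MN1 footprints against GFP, 0 to 54 and 42 against hTDP-43, 0 to 13 and 9 for hTDP-43 against GFP, 1 to 283 and 16, 0 to 76 and 52, and 1 to 47 and 6 in the same contrasts of total mRNA. In neurons they were 8 and 78, 15 and 23, and 5 and 58 in footprints, and 35 and 209, 0 and 70, and 20 and 50 in total mRNA, against 0 in each. Over all genes the comparison of the cell types for footprints relative to total mRNA called 997 genes, 671 with DESeq2, 604 with RLE scaling and 63 without the A315T groups. Depth limits the neuron footprints, where 4 of 10 members were too low to test for A315T against non-transgenic and 5 of 10 in each of the other 2 contrasts.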
